A study of Homo sapiens with 24 samples.

Results

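The linker histone gene H1F0 and 8 genes for other histone variants were followed across wild-type (WT) and ID3-knockout (ID3-KO) U2OS cells with and without mocetinostat, an inhibitor of class I histone deacetylases (HDACs). The 9 genes were chosen by name (H1F0, H1FX, H2AFZ, H2AFV, H2AFJ, H2AFY, H2AFY2, H3F3A and H3F3B), and each had 1 row among the 57820 genes of the count tables. U2OS is a human osteosarcoma cell line, and AID-DIvA cells are U2OS cells that carry the restriction enzyme AsiSI under inducible control. AID-DIvA cells, WT or ID3-KO, were either left untreated or given mocetinostat for 24 h and then fresh medium without it for 24 h (after recovery). U2OS cells, WT or ID3-KO, were untreated or mocetinostat-treated, and were read as collected at the end of the 24 h treatment (before recovery), which follows from the series design and the methods and not from a label of the samples. Each of the 8 groups had 3 biological replicates, giving 24 libraries. The drug dose for these libraries and the way the knockout line was derived (1 clone or a pool) were not given in the sources used here.

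The treatment field of the AID-DIvA samples contradicts their titles, and the titles were followed. If the treatment field were right, every sign of the after-recovery treatment comparisons and of the AID-DIvA interactions below would turn. The untreated and recovered AID-DIvA groups would then change places in the genotype comparisons. The differences between stages would change as well. Read by the titles, CDKN1A, an inhibitor of the cell cycle, was higher after the drug by 1.21 on the log2 scale in AID-DIvA WT and by 0.94 in ID3-KO. In U2OS, where titles and field do not conflict, it was higher by 0.92 and 0.96. Line and sampling stage coincide, so that before recovery against after recovery cannot be told apart from U2OS against AID-DIvA.

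Linker histones sit where DNA enters and leaves the nucleosome and help to pack the chromatin fibre. H1.0, the product of H1F0, and H1.10, that of H1FX, are made outside S phase, unlike the clustered HIST1H1 genes, and H1.0 is known to accumulate in cells that stop dividing or differentiate. Variant core histones replace the replication-coupled ones at chosen places: H2A.Z (H2AFZ and H2AFV) and H3.3 (H3F3A and H3F3B, which encode the same protein) at promoters and regulatory regions, and macroH2A (H2AFY and H2AFY2), which has an added macro domain, mostly in silent chromatin. H2A.J, the product of H2AFJ, is an H2A variant known to accumulate in senescent cells.

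Library totals ran from 37878751 to 76906266 counted reads. The ID3 transcript was lower in untreated knockout than WT cells by 0.56 on the log2 scale in AID-DIvA (SE 0.07, edgeR adjusted p = 8.38e-06) and by 1.03 in U2OS (SE 0.17, adjusted p = 0.00651), and untreated knockout cells still had 32.0 to 38.8 and 29.3 to 32.3 CPM of it, where CPM are counts scaled by library size. It did not separate the genotypes over all groups: AID-DIvA ID3-KO cells after recovery had 61.1 to 67.3 CPM, above the 47.9 to 51.9 CPM of untreated AID-DIvA WT cells. Of the 6 markers of the osteosarcoma lineage, 5 were at 1 CPM or more in every library and COL1A2 was not; their summed level was 3371 to 4766 CPM in untreated and 2333 to 3164 CPM in treated libraries. Of 4 epithelial markers, 3 were at 1 CPM or more in every library, with KRT8 the highest at 132 to 310 CPM, and the highest value of any of 4 haematopoietic markers was 0.41 CPM. One library stood apart: U2OS WT untreated replicate 1 had counts in 27361 genes against at least 28734 elsewhere, and its distance to the other replicates of its group (chi-square per gene of 103 and 91.1) exceeded that of any other replicate pair (2.79 to 27.3). Its MKI67 level, a proliferation marker, was 293 CPM against 632 and 636 CPM in replicates 2 and 3. The members' treatment values in U2OS WT, and the counts of the gene lists there, are therefore given with and without this library.

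Levels of different genes were set side by side as FPKM, the counts scaled by library size and by the exonic length of the gene. H1F0 was the most abundant of the 9 in every group, with a median of 429 FPKM over the 24 libraries and a range of 305 to 657 FPKM. H2AFZ followed with a median of 247 FPKM, then H1FX with 129 FPKM, H3F3B with 84.8 FPKM and H2AFV with 63.1 FPKM. In the U2OS WT untreated group the H1F0 and H2AFZ values overlapped, and in the other 7 groups all H1F0 values lay above all H2AFZ values. H3F3A had a median of 30.9 FPKM, H2AFY2 27.2 FPKM, H2AFY 9.75 FPKM and H2AFJ 6.22 FPKM. The exonic length used for H2AFY, 17730 bases summed over all annotated exons, is far above that of the other members (1506 to 6134 bases), which lowers its FPKM. H2AFY2 had the widest range over libraries, 6.38-fold from lowest to highest, and H2AFY the narrowest, 1.48-fold.

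**Figure D1:**
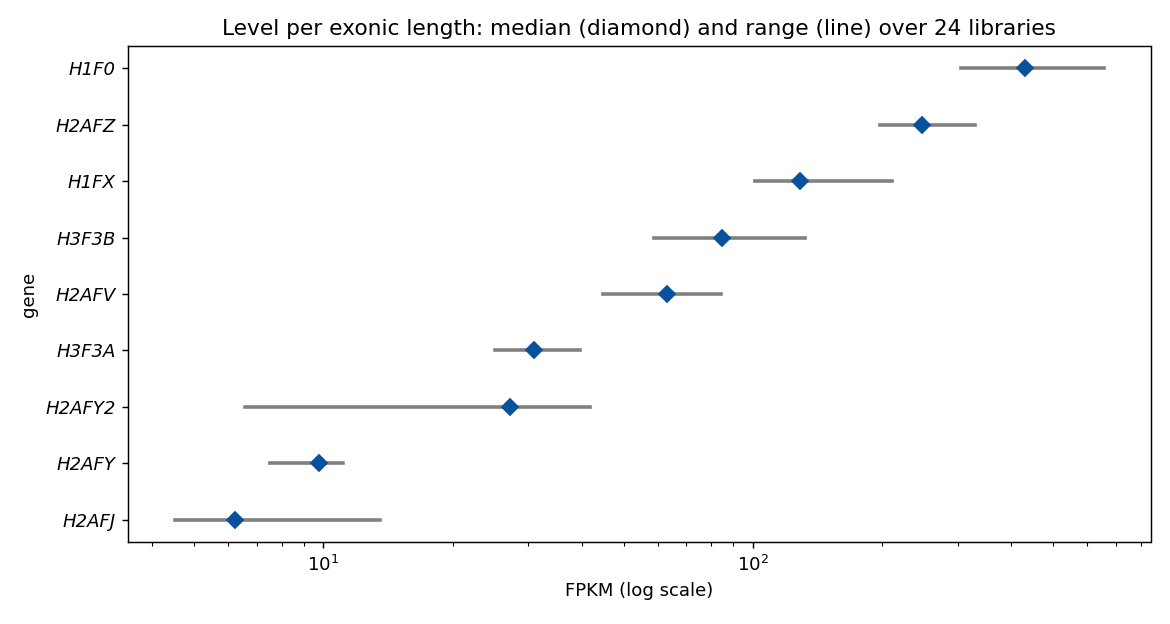
Level per exonic length of the 9 genes, as FPKM on a log axis; diamonds are medians and lines the range over 24 libraries. H1F0 lies highest with a median of 429 FPKM, and the longest line is that of H2AFY2, from 6.57 to 41.9 FPKM.

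H1F0 (ENSG00000189060.4, hg19 chr22:38201114-38203442, plus strand, a gene without introns) rose before recovery in both genotypes and was not called in either genotype after it. In U2OS WT the untreated libraries had 813, 752 and 744 CPM and the mocetinostat libraries 1058, 1076 and 1105 CPM. In U2OS ID3-KO the untreated libraries had 992, 992 and 1008 CPM and the treated ones 1531, 1451 and 1513 CPM. The treated and untreated libraries did not overlap in either genotype, and the group means were 40.3% and 50.3% higher with the drug. The log2 fold change was 0.50 in WT (SE 0.07, adjusted p = 0.000922) and 0.59 in ID3-KO (SE 0.04, adjusted p = 2.21e-11) by edgeR's quasi-likelihood test. Without U2OS WT untreated replicate 1 the WT value was 0.54 (adjusted p = 3.42e-20). In bulk RNA, a change in the share of cells that express a gene cannot be told apart from a change in RNA per cell, here or below.

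After recovery the AID-DIvA WT libraries had 711, 817 and 757 CPM of H1F0 against 743, 766 and 781 CPM untreated. The 2 groups overlapped, and the difference was 0.01 on the log2 scale (95% interval -0.10 to 0.11, adjusted p = 0.925). The AID-DIvA ID3-KO libraries had 1006, 926 and 1031 CPM after recovery against 1059, 1053 and 1213 CPM untreated, a log2 difference of -0.17 that did not pass the test (adjusted p = 0.101) and passed narrowly with all 4 AID-DIvA groups in one fit (adjusted p = 0.0491). The after-recovery response was lower than the before-recovery response by 0.50 in WT (SE 0.09, adjusted p = 0.000755) and by 0.77 in ID3-KO (SE 0.08, adjusted p = 3.54e-07). This test compares 6 AID-DIvA with 6 U2OS libraries per genotype.

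H1F0 was also higher in untreated ID3-KO than in untreated WT cells of both lines. In AID-DIvA the lowest knockout library, 1053 CPM, lay above the highest WT library, 781 CPM, with a log2 difference of 0.52 (SE 0.06, adjusted p = 2.03e-06). In U2OS the knockout libraries began at 992 CPM and the WT ones ended at 813 CPM, with a log2 difference of 0.37 (SE 0.07, adjusted p = 0.0122). The U2OS call rested on few libraries: it was lost when any of 4 of the 6 was left out (adjusted p of 0.0516 to 0.0887), while without U2OS WT untreated replicate 1 the difference was 0.41 (adjusted p = 2.79e-13). With mocetinostat the knockout means were 38.8% above WT in U2OS and 29.7% above WT after recovery in AID-DIvA, and in both pairs the libraries did not overlap. The response itself was not called different between the genotypes in U2OS (interaction 0.10, 95% interval -0.07 to 0.27, adjusted p = 0.648) or AID-DIvA (-0.17, 95% interval -0.36 to 0.03, adjusted p = 0.522).

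Over the 8 groups H1F0 was therefore highest in treated U2OS ID3-KO, with a mean of 1498 ± 41.6 CPM (SD, n = 3). Untreated AID-DIvA ID3-KO (1108 ± 90.6 CPM) and treated U2OS WT (1080 ± 24.2 CPM) came next and overlapped each other. Untreated U2OS ID3-KO (997 ± 9.05 CPM) and AID-DIvA ID3-KO after recovery (988 ± 55.0 CPM) followed and also overlapped. The other 3 groups were all WT, untreated U2OS (770 ± 37.7 CPM), untreated AID-DIvA (763 ± 19.2 CPM) and AID-DIvA after recovery (762 ± 52.9 CPM), and neighbours among them overlapped.

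**Figure D2:**
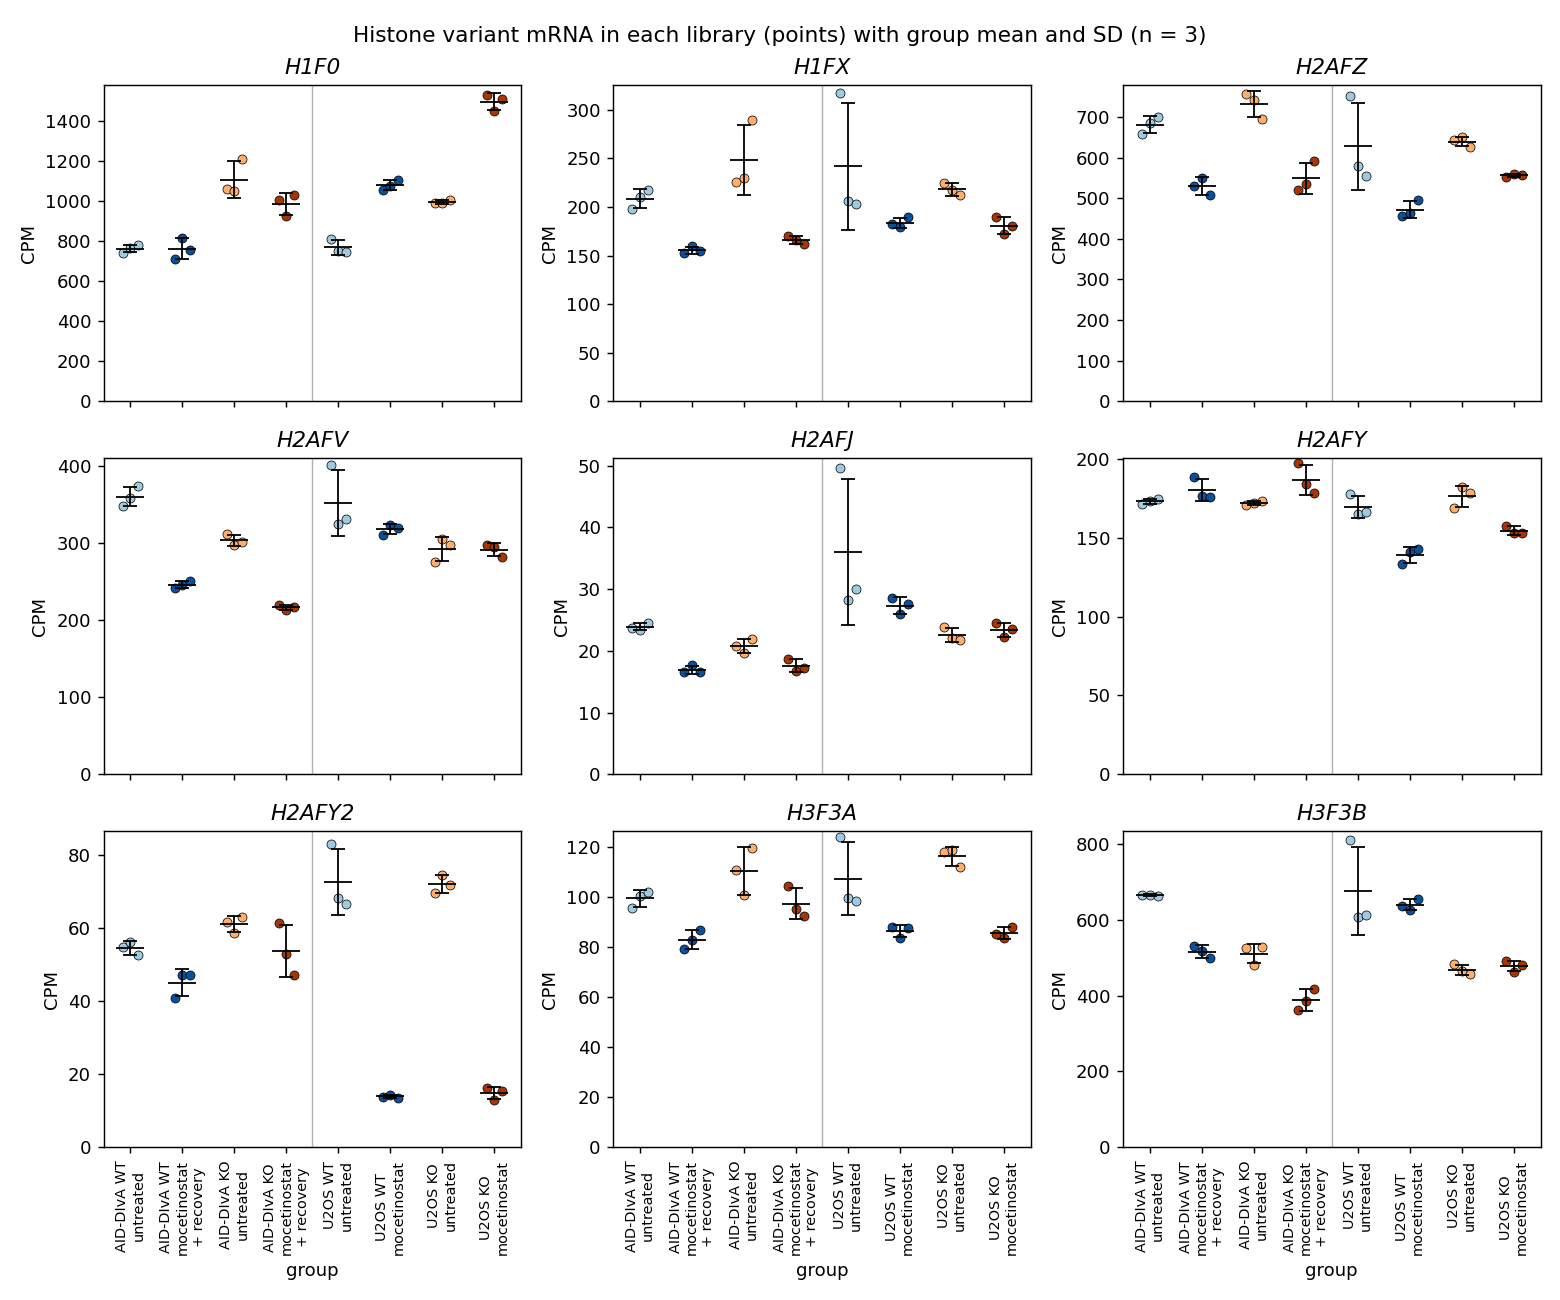
CPM of each gene in the 24 libraries by group (points), with the group mean and SD (bars, n = 3); the grey line divides AID-DIvA from U2OS. H1F0 reaches 1498 CPM on average in treated U2OS ID3-KO, H2AFY2 falls to 13.9 and 14.9 CPM on average in the treated U2OS groups, and replicate 1 of untreated U2OS WT lies above its group for most genes.

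H1FX (ENSG00000184897.4, hg19 chr3:129033615-129035120, minus strand), the other replication-independent linker histone, fell after recovery in both genotypes and before recovery in ID3-KO. After recovery it was at 153, 160 and 154 CPM in AID-DIvA WT against 198, 210 and 218 CPM untreated, and at 170, 166 and 162 CPM in ID3-KO against 226, 230 and 290 CPM untreated. Neither pair of groups overlapped. H1FX fell by 0.41 on the log2 scale in WT (SE 0.04, adjusted p = 5.1e-06) and by 0.58 in ID3-KO (SE 0.10, adjusted p = 0.00106). Before recovery it fell by 0.27 in U2OS ID3-KO (SE 0.05, adjusted p = 1.68e-05). The U2OS WT value of -0.39 did not pass (adjusted p = 0.0993); without untreated replicate 1, which had 318 CPM against 206 and 203 CPM in the others, it was -0.14 and passed (adjusted p = 0.000232). Counted on the reverse strand alone, H1FX had 47.3% more reads than without strand, because it overlaps the antisense gene H1FX-AS1, and its treatment values kept their sign and their call on that count.

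The 2 linker genes therefore shifted against each other within the libraries. The ratio of H1F0 to H1FX in FPKM was 2.36 and 2.37 in replicates 2 and 3 of untreated U2OS WT and 1.66 in replicate 1, and 3.75, 3.87 and 3.78 with mocetinostat. In U2OS ID3-KO it was 2.85, 2.95 and 3.07 untreated and 5.23, 5.46 and 5.42 treated. In AID-DIvA it was 2.37 ± 0.05 untreated and 3.17 ± 0.15 after recovery in WT, and 2.90 ± 0.17 and 3.85 ± 0.26 in ID3-KO (SD, n = 3). The ratio was higher after the drug in all 4 comparisons without overlap, with H1F0 up in U2OS and H1FX down in U2OS ID3-KO and in AID-DIvA.

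Among the replication-dependent linker histones, 2 of 6 genes had enough counts to be tested, and both rose before recovery. Of all genes, 26.0% were called higher there in U2OS WT and 35.8% in ID3-KO. HIST1H1B had no count in any library, and how fully these counts capture transcripts of such genes was not tested. HIST1H1E rose by 2.09 on the log2 scale in U2OS WT (adjusted p = 0.000717) and by 2.73 in ID3-KO (adjusted p = 1.77e-11), from a low level of 0.33 and 0.48 CPM to 1.39 and 3.13 CPM. HIST1H1C rose by 0.41 in WT (adjusted p = 0.0377) and by 0.49 in ID3-KO (adjusted p = 5.92e-09). Without untreated U2OS WT replicate 1 the WT values were 2.40 for HIST1H1E and 0.58 for HIST1H1C, both called. In that fit 33.9% of all genes were called higher. HIST1H1C was also higher in untreated knockout cells, by 1.05 in AID-DIvA (adjusted p = 1.77e-09) and by 0.78 in U2OS (adjusted p = 0.00659). After recovery HIST1H1C was 0.22 above untreated in WT (adjusted p = 0.00901), and neither gene passed in ID3-KO.

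The genes whose pattern was most like that of H1F0 were found from log2 CPM over the 24 libraries, centred within each line, among 15592 other genes with a mean of at least 1 CPM. PACSIN1 had a Pearson r of 0.97, P2RY2 (a nucleotide receptor) and NCOR1P3 (a pseudogene of a corepressor gene) 0.96 each, SAMD14 0.96 and GNA12 (a G protein subunit) 0.95. The libraries share genotype and drug, so these values describe a common order of groups. PACSIN1, the closest, rose from 0.98 to 3.47 CPM with the drug in U2OS WT and from 2.57 to 7.45 CPM in ID3-KO on average. None of the other 8 members followed H1F0 in this sense: r was between -0.55 for H2AFY2 and -0.03 for H2AFZ.

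Among all 9 members before recovery, 1 rose and 4 fell in U2OS WT, and 1 rose and 5 fell in U2OS ID3-KO. Without untreated U2OS WT replicate 1, 2 rose and 5 fell in WT, where 33.9% of all genes were called higher and 32.5% lower. With all libraries, 26.0% of all genes were called higher and 22.9% lower in WT, and 35.8% higher and 34.0% lower in ID3-KO. The median log2 fold change of the members was -0.30 in WT and -0.18 in ID3-KO against 0.0058 and 0.0009 for all genes tested. After recovery no member was called higher, 7 of 9 were lower in AID-DIvA WT and 5 of 9 in ID3-KO. The shares of all genes were 23.9% higher and 23.0% lower in WT, and 20.2% higher and 19.9% lower in ID3-KO. Members had medians of -0.35 and -0.25 after recovery, and all genes -0.0005 and -0.0232.

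**Figure D3:**
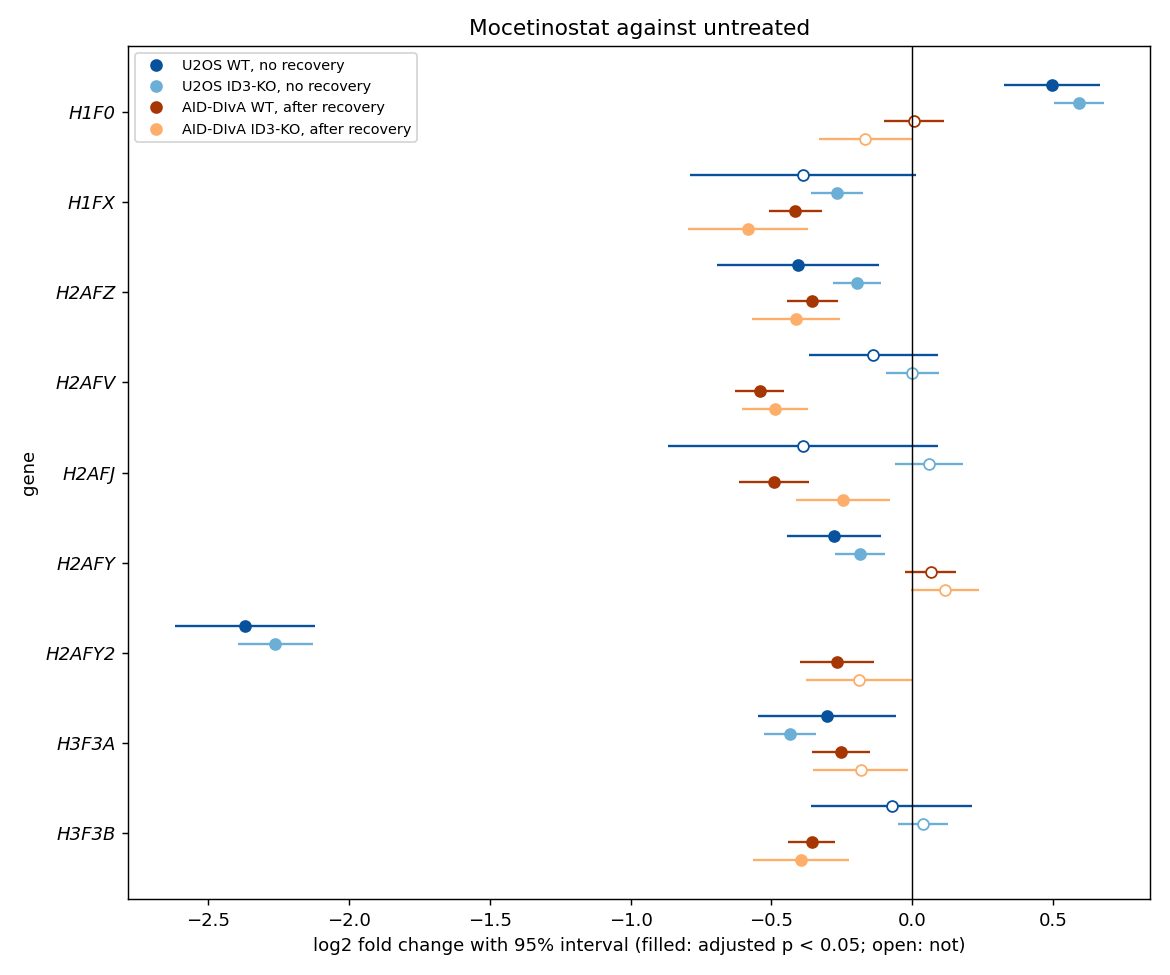
log2 fold change of mocetinostat against untreated with 95% intervals, by gene and comparison; filled points passed the test. H2AFY2 stands at -2.37 and -2.26 before recovery, H1F0 is to the right of 0 before recovery, and no filled point lies to the right of 0 after recovery.

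To show the sequence next to the genes that fell after recovery, the 250 bases before the annotated start were read from RefSeq promoters (GRCh38.p14, another build than the hg19 of the counts). Entries were matched for 8 of the 9 members; H1F0 had none. The motifs searched, on both strands, were CCAAT (the core of the NF-Y element) and TATAAA, and no match of one overlaps a match of the other. The first is in 32.0% of all 35116 promoters of this length and 3 or more copies are in 2.93%; the second is in 10.7%. H2AFZ held 3 CCAAT copies, H2AFV 4, H2AFJ 3 and H3F3B 4. These 4 were among the 5 members that fell after recovery in both genotypes, and the other one, H1FX, held none. H2AFY2 held neither motif, and no entry of H3F3A held more than 1 CCAAT copy or of H2AFY more than 2. TATAAA stood in H1FX, H2AFZ and H3F3B. The motifs were picked with the results known, and a match is a description, not a site in use. The 6 sequences run 5′ to 3′ along the gene; capitals mark the matches, and one that reads ATTGG is the first motif on the other strand.
H2AFZ promoter, chr4:99950276-99950525, minus strand: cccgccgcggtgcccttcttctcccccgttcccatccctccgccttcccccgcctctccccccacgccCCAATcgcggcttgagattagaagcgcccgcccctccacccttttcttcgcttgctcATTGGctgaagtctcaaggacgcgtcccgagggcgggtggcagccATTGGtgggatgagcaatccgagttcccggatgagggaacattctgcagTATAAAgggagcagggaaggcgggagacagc
H2AFV promoter, chr7:44848088-44848337, minus strand: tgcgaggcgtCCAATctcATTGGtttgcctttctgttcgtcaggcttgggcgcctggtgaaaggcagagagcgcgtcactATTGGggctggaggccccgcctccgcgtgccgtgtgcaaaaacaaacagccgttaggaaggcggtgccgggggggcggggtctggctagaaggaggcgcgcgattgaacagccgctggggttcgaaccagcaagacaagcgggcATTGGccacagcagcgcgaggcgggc
H2AFJ promoter, chr12:14774155-14774404, plus strand: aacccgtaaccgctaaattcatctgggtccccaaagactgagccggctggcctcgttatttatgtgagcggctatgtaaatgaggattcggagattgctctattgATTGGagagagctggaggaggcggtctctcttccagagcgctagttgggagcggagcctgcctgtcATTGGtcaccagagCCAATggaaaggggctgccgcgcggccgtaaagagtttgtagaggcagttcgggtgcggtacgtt
H3F3B promoter, chr17:75779780-75780029, minus strand: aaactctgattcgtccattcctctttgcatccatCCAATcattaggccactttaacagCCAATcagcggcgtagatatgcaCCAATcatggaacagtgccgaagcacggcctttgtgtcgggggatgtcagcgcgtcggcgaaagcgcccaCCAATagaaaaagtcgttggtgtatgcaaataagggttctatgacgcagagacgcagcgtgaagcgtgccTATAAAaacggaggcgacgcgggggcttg
H1FX promoter, chr3:129316287-129316536, minus strand: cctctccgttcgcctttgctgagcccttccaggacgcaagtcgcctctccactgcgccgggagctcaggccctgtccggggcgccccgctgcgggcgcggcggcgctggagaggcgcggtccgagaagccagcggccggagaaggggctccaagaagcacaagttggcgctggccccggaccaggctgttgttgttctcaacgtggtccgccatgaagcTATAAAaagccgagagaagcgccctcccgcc
H2AFY2 promoter, chr10:70052596-70052845, plus strand: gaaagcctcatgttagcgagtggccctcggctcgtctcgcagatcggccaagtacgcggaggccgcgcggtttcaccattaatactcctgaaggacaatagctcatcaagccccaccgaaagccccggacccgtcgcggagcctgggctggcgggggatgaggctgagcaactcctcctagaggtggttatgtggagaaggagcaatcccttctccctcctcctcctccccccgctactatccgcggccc

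The largest change of any member was that of H2AFY2 (ENSG00000099284.9, hg19 chr10:71812552-71872036, plus strand), which encodes macroH2A2. In U2OS WT it was at 82.9, 68.1 and 66.6 CPM untreated and at 13.9, 14.3 and 13.6 CPM with mocetinostat. In U2OS ID3-KO it was at 69.6, 74.5 and 71.6 CPM untreated and at 16.3, 13.0 and 15.4 CPM treated. All treated libraries lay far below all untreated ones, and 19.2% of the WT level and 20.7% of the ID3-KO level was left. The log2 fold change was -2.37 in WT (SE 0.11, adjusted p = 3.47e-06) and -2.26 in ID3-KO (SE 0.06, adjusted p = 2.13e-18), and -2.27 in WT without untreated replicate 1. H2AFY2 was the only member to change by more than 2-fold in either comparison. Of all genes, 1103 of 21797 in WT and 1222 of 21176 in ID3-KO were called and fell by more than 2-fold. The responses of the genotypes were not called different (interaction 0.11, 95% interval -0.18 to 0.40, adjusted p = 0.777).

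After recovery H2AFY2 was much closer to the untreated level. AID-DIvA WT had 54.8, 56.1 and 52.4 CPM untreated and 40.8, 47.2 and 47.1 CPM after recovery, groups that did not overlap, and the gene fell by 0.27 (SE 0.06, adjusted p = 0.00275). AID-DIvA ID3-KO had 61.6, 58.5 and 63.0 CPM untreated and 61.2, 52.7 and 47.0 CPM after recovery, groups that overlapped, with a log2 difference of -0.19 that did not pass (adjusted p = 0.105). Without the first recovered replicate that value was -0.27 and passed (adjusted p = 0.0076). The 2 stages differed by 2.10 in WT (SE 0.13, adjusted p = 7.15e-08) and by 2.07 in ID3-KO (SE 0.12, adjusted p = 1.56e-10).

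H2AFY (ENSG00000113648.12, hg19 chr5:134669590-134735604, minus strand), which encodes macroH2A1, changed far less. Before recovery it went from 178, 165 and 166 CPM to 134, 141 and 143 CPM in U2OS WT and from 169, 182 and 178 CPM to 158, 153 and 153 CPM in ID3-KO. It fell by 0.28 in WT (SE 0.07, adjusted p = 0.0139) and by 0.18 in ID3-KO (SE 0.04, adjusted p = 0.000615), and the WT call was lost without any 1 of the treated replicates (adjusted p of 0.0527 to 0.0804) and held without untreated replicate 1 at -0.25 (adjusted p = 2.95e-08). After recovery its values of 0.07 in WT and 0.12 in ID3-KO did not pass (adjusted p = 0.213 and 0.114). On the reverse strand alone it had 19.0% more reads, as it overlaps antisense genes, and its 4 treatment calls were the same on that count.

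The FPKM ratio of H2AFY to H2AFY2 gives the balance of the pair within a library. It was 0.24, 0.27 and 0.28 in untreated U2OS WT and 1.07, 1.10 and 1.18 with mocetinostat, and 0.27, 0.27 and 0.28 in untreated ID3-KO against 1.08, 1.32 and 1.11 treated. H2AFY2 thus made up 79.2% ± 1.32 and 78.5% ± 0.21 of the summed FPKM of the pair in untreated U2OS WT and ID3-KO, and 47.3% ± 1.17 and 46.2% ± 2.64 with the drug (SD, n = 3). After recovery the ratio was 0.45 ± 0.06 in AID-DIvA WT against 0.36 ± 0.01 untreated, and 0.39 ± 0.03 in ID3-KO against 0.32 ± 0.01. The long exonic length of H2AFY enters each ratio alike, so the changes between groups are not set by it.

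**Figure D4:**
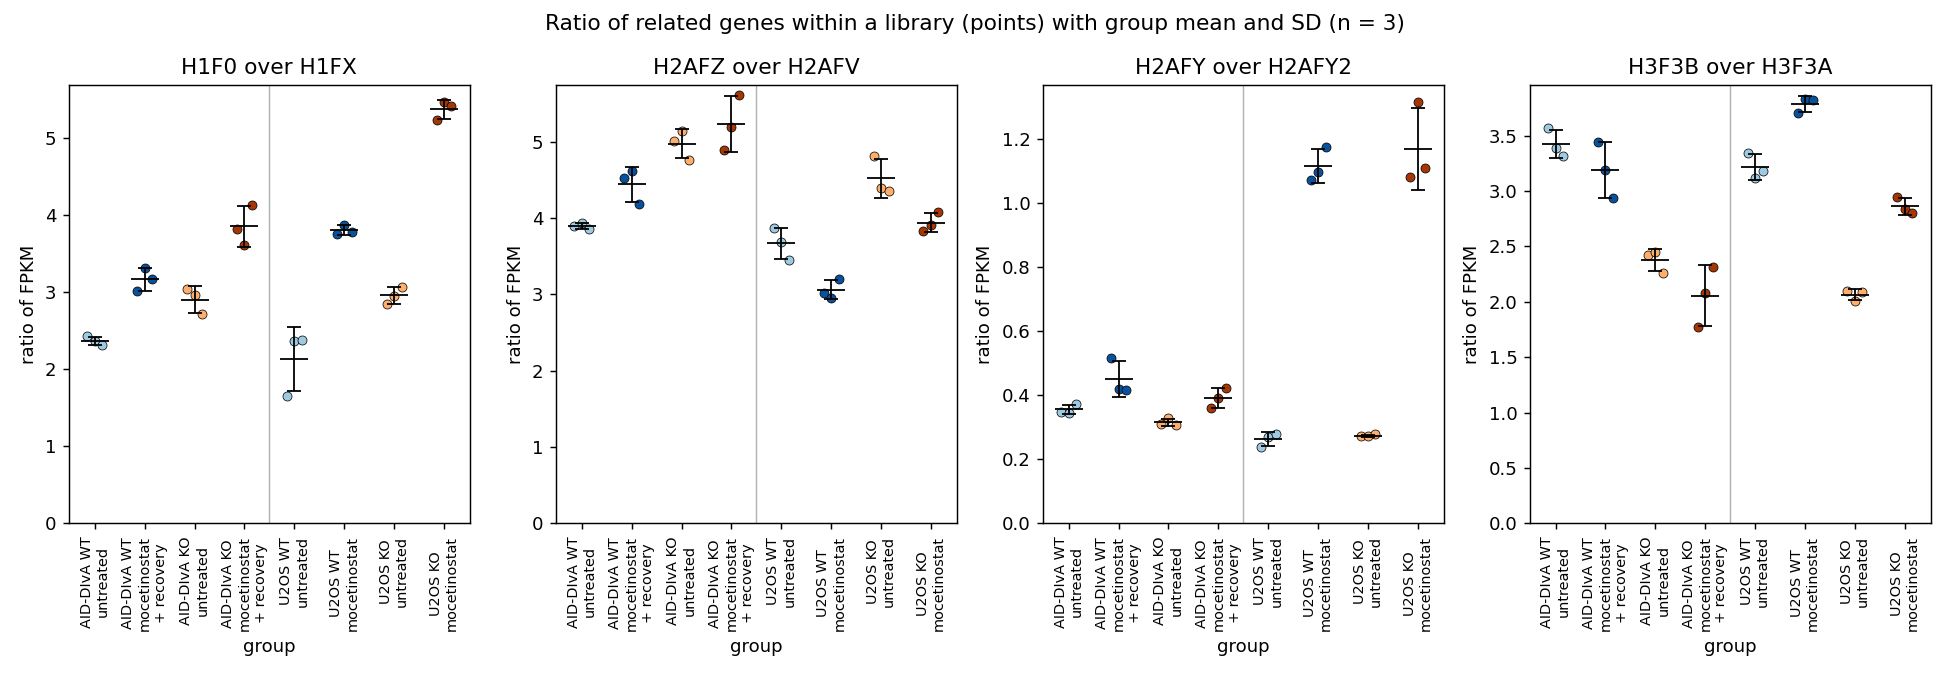
Ratio of FPKM of 4 pairs of related genes in each library by group (points), with mean and SD (n = 3). H2AFY over H2AFY2 lies at 1.12 and 1.17 in the treated U2OS groups and at most 0.45 on average elsewhere, H1F0 over H1FX is highest in treated U2OS ID3-KO at 5.37, and H3F3B over H3F3A is lower in untreated ID3-KO than in untreated WT in both lines.

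H2AFZ (ENSG00000164032.7, hg19 chr4:100869243-100871545, minus strand), which encodes H2A.Z.1, fell in all 4 treatment comparisons. In U2OS WT it had 752, 579 and 555 CPM untreated and 455, 465 and 495 CPM treated, and in ID3-KO 643, 650 and 627 CPM untreated and 552, 560 and 557 CPM treated. After recovery AID-DIvA WT had 532, 551 and 507 CPM against 659, 685 and 701 CPM untreated, and ID3-KO had 521, 536 and 592 CPM against 758, 742 and 697 CPM. None of these pairs of groups overlapped. The fall was 0.41 in U2OS WT (SE 0.12, adjusted p = 0.0283), 0.20 in U2OS ID3-KO (SE 0.04, adjusted p = 0.000183), 0.35 in AID-DIvA WT (SE 0.04, adjusted p = 1.39e-05) and 0.41 in AID-DIvA ID3-KO (SE 0.07, adjusted p = 0.00126). The U2OS WT value was -0.26 without untreated replicate 1 (adjusted p = 4.29e-09), and its call was lost without any 1 of the treated replicates (adjusted p of 0.0696 to 0.102). Fitted with all 4 U2OS groups, the U2OS ID3-KO call was lost for H2AFZ (adjusted p = 0.087) and for H1FX (adjusted p = 0.0998).

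H2AFV (ENSG00000105968.14, hg19 chr7:44866390-44887682, minus strand), which encodes H2A.Z.2 and has 4 CCAAT copies in the sequence above, was called lower in both comparisons after recovery and in neither before it. AID-DIvA WT had 349, 359 and 374 CPM untreated and 242, 246 and 250 CPM after recovery, and ID3-KO had 312, 298 and 302 CPM untreated and 220, 213 and 218 CPM after recovery. Both pairs were well apart, with a fall of 0.54 in WT (SE 0.04, adjusted p = 1.69e-07) and of 0.49 in ID3-KO (SE 0.05, adjusted p = 7.53e-05). Before recovery the value was -0.14 in U2OS WT (95% interval -0.37 to 0.09, adjusted p = 0.285) and 0.0005 in ID3-KO (95% interval -0.09 to 0.10, adjusted p = 0.994). Without untreated replicate 1 the WT value was -0.0356 (SE 0.0331, adjusted p = 0.352). The stages differed by -0.41 in WT (adjusted p = 0.00893) and by -0.49 in ID3-KO (adjusted p = 1.35e-05). Within the libraries the ratio of H2AFZ to H2AFV was lower with the drug before recovery, at 3.67 ± 0.21 untreated and 3.06 ± 0.12 treated in U2OS WT and 4.52 ± 0.26 and 3.94 ± 0.13 in ID3-KO, and higher after recovery in AID-DIvA WT, at 3.90 ± 0.04 untreated and 4.44 ± 0.23 recovered (SD, n = 3). In these 3 pairs of groups the libraries did not overlap. In AID-DIvA ID3-KO they did, at 4.97 ± 0.19 untreated and 5.23 ± 0.36 recovered.

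H2AFJ (ENSG00000246705.3, hg19 chr12:14927270-14930936, plus strand) was also called lower in both comparisons after recovery and in neither before it. It was at 23.8, 23.5 and 24.6 CPM in untreated AID-DIvA WT and at 16.5, 17.7 and 16.6 CPM after recovery, and at 20.8, 19.7 and 21.9 CPM in ID3-KO against 18.7, 16.7 and 17.3 CPM. It fell by 0.49 in WT (SE 0.06, adjusted p = 1.22e-05) and by 0.25 in ID3-KO (SE 0.07, adjusted p = 0.0257), and the second call was lost when any of 4 of the 6 libraries was left out (adjusted p of 0.0694 to 0.11). Before recovery the U2OS WT value was -0.39 (adjusted p = 0.159) and the ID3-KO value 0.06 (adjusted p = 0.372). Untreated U2OS WT had 49.6 CPM in replicate 1 against 28.3 and 30.0 CPM, and without replicate 1 the WT value was -0.08 (adjusted p = 0.186). The stage difference in WT was -0.11 and was not called (95% interval -0.60 to 0.39, adjusted p = 0.739), against -0.42 without that library (adjusted p = 0.00016).

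Of the pair that encodes H3.3, H3F3B was called lower after recovery in both genotypes, and H3F3A in WT after recovery and in both genotypes before it. The stage difference in WT was called for neither gene, at -0.29 for H3F3B (adjusted p = 0.104) and 0.04 for H3F3A (adjusted p = 0.803). H3F3B (ENSG00000132475.4, hg19 chr17:73772515-73781974, minus strand) was at 666, 666 and 661 CPM in untreated AID-DIvA WT and at 532, 517 and 498 CPM after recovery, and at 524, 481 and 528 CPM in ID3-KO against 361, 386 and 418 CPM. It fell by 0.36 in WT (SE 0.04, adjusted p = 5.76e-06) and by 0.39 in ID3-KO (SE 0.08, adjusted p = 0.00275). Before recovery its groups overlapped, with -0.07 in U2OS WT (95% interval -0.36 to 0.21, adjusted p = 0.656) and 0.04 in ID3-KO (95% interval -0.05 to 0.13, adjusted p = 0.442); without untreated replicate 1 the WT value turned to 0.08 (adjusted p = 0.0328).

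H3F3A (ENSG00000163041.5, hg19 chr1:226249552-226259702, plus strand) fell before recovery, from 118, 119 and 112 CPM to 85.4, 83.6 and 88.2 CPM in U2OS ID3-KO, by 0.43 (SE 0.04, adjusted p = 9.03e-09). In U2OS WT it went from 124, 99.7 and 98.5 CPM to 88.0, 83.9 and 87.9 CPM, by 0.30 (SE 0.11, adjusted p = 0.0451), a call that was lost under 3 other scalings or filters (adjusted p of 0.0519 to 0.0922) and without any 1 of the treated replicates (adjusted p of 0.113 to 0.148), and that held without untreated replicate 1 at -0.19 (adjusted p = 2.12e-05). After recovery it fell by 0.25 in AID-DIvA WT (SE 0.05, adjusted p = 0.000735), and the ID3-KO value of -0.18 did not pass (adjusted p = 0.0819). It passed with all 4 AID-DIvA groups fitted together (adjusted p = 0.0309), without the first recovered ID3-KO replicate (-0.21, adjusted p = 0.0362) and without the second untreated one (-0.25, adjusted p = 0.0401). Reads of H3F3A can be shared with its processed copy H3F3AP4, which was itself counted at 18.0 to 42.2 CPM; the other 11 named copies of H3F3A, H3F3B and H2AFZ were below 1 CPM in every library.

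In untreated cells, 2 members were higher and 3 lower in AID-DIvA ID3-KO than in WT, where 36.7% of all genes were called in either direction. In U2OS 1 was higher and 1 lower, where the share of all genes was 15.2%. H1F0 and H3F3B were called in both lines. H3F3B was at 524, 481 and 528 CPM in AID-DIvA ID3-KO against 666, 666 and 661 CPM in WT, and at 483, 465 and 456 CPM in U2OS ID3-KO against 810, 606 and 611 CPM in WT. The knockout libraries lay below all WT libraries in both lines. The log2 difference was -0.40 in AID-DIvA (SE 0.05, adjusted p = 3.28e-06) and -0.53 in U2OS (SE 0.12, adjusted p = 0.0246), and in U2OS it was -0.38 without untreated WT replicate 1 (adjusted p = 4.05e-12) but lost its call without any 1 of the knockout replicates (adjusted p of 0.0998 to 0.119). H3F3A stood at 0.13 in AID-DIvA and 0.11 in U2OS, neither past the test (adjusted p = 0.107 and 0.519), so that the FPKM ratio of H3F3B to H3F3A was 2.38 ± 0.10 in knockout against 3.42 ± 0.13 in WT AID-DIvA cells, and 2.06 ± 0.05 against 3.22 ± 0.12 in U2OS (SD, n = 3).

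The other genotype calls were smaller. In AID-DIvA, H2AFV was lower in the knockout by 0.27 (SE 0.04, adjusted p = 7.99e-05) and H2AFJ by 0.23 (SE 0.06, adjusted p = 0.00618), and H2AFY2 was higher by 0.14 (SE 0.05, adjusted p = 0.0354), a call lost when any of 4 of the 6 libraries was left out (adjusted p of 0.0629 to 0.176). In U2OS the same 3 genes stood at -0.27, -0.68 and -0.01 and did not pass (adjusted p = 0.121, 0.068 and 0.938). Without untreated WT replicate 1, 5 members were higher and 3 lower in the U2OS knockout. In that fit 20.5% of all genes were called higher and 20.6% lower. The members called there included H2AFV at -0.16 (adjusted p = 0.000364), H2AFJ at -0.37 (adjusted p = 4.34e-07), H2AFZ at 0.17 (adjusted p = 5.79e-05) and H3F3A at 0.23 (adjusted p = 2.32e-06). H1FX passed in neither line (0.23, adjusted p = 0.0727, and -0.15, adjusted p = 0.602), though in AID-DIvA it passed without the filter on low counts (0.24, adjusted p = 0.000214) and without the first (0.31, adjusted p = 0.0189) or the third knockout replicate (0.09, adjusted p = 0.038), and in U2OS without untreated WT replicate 1 (0.10, adjusted p = 0.0261). No member's response to the drug was called different between genotypes by edgeR, with 0 of 9 at an adjusted p below 0.05 in either line, where 1.21% of all genes were called in AID-DIvA and 2.15% in U2OS. The member nearest to a call was H2AFJ in AID-DIvA (0.25, 95% interval 0.06 to 0.45, adjusted p = 0.263). Without untreated U2OS WT replicate 1 H3F3A was called in U2OS (-0.25, adjusted p = 0.00431). In that fit 4.46% of all genes were called higher and 4.56% lower.

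**Figure D5:**
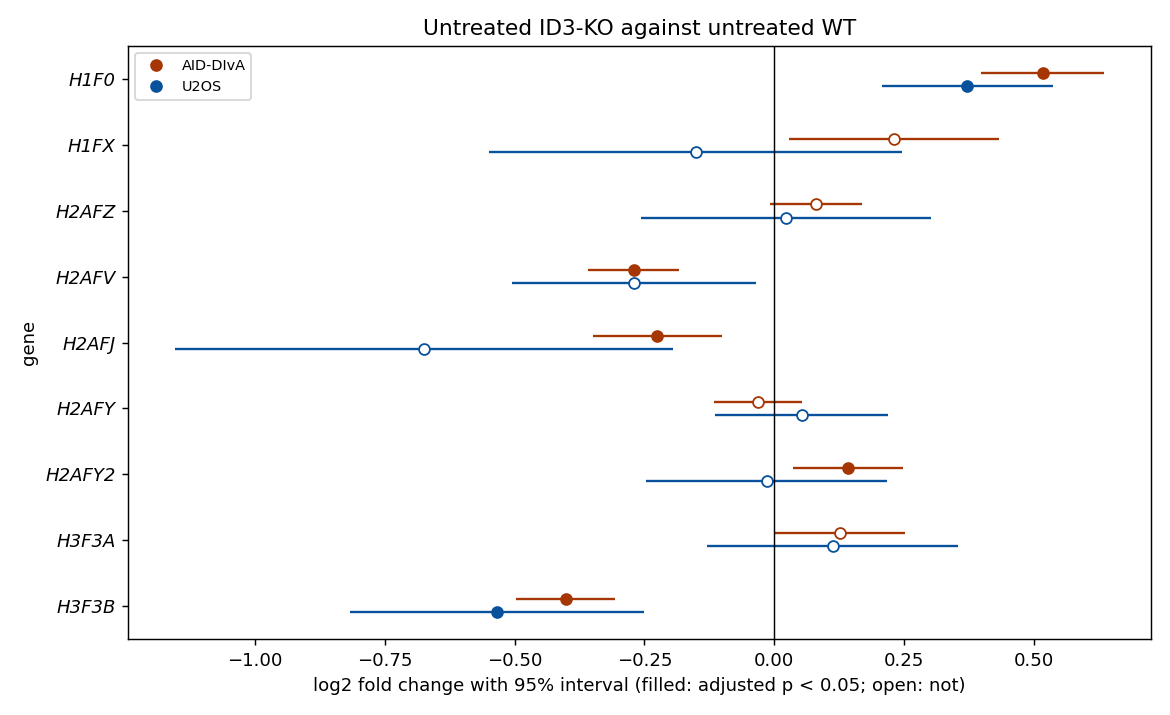
log2 difference of untreated ID3-KO from untreated WT with 95% intervals, by gene and line; filled points passed the test. H1F0 lies to the right of 0 at 0.52 and 0.37 and H3F3B to the left at -0.40 and -0.53, both filled in both lines, and the U2OS intervals are the wider ones.

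Set side by side, the responses after and before recovery differed for 4 members in WT (2 higher and 2 lower), where 42.2% of all genes were called, and for all 9 in ID3-KO (3 higher and 6 lower), where 52.5% were called. The smaller of the knockout differences were H1FX at -0.32, H2AFZ at -0.22, H2AFJ at -0.31, H2AFY at 0.30 and H3F3A at 0.25, and those of H1FX, H2AFZ, H2AFJ and H3F3A were lost with all 8 groups in one fit (adjusted p of 0.0531 to 0.187). The larger ones were those of H2AFY2, H1F0, H2AFV and H3F3B (-0.44, adjusted p = 0.000173). Without untreated U2OS WT replicate 1, 5 members were lower in WT, with H1FX at -0.28, H2AFJ at -0.42 and H3F3B at -0.44 added. In that fit 26.0% of all genes were called higher and 26.0% lower.

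Of 30 genes for deposition and exchange of these variants, all were tested. Before recovery 0 rose and 18 fell in U2OS WT and 3 rose and 20 fell in ID3-KO, with medians of -0.35 and -0.19, against 22.9% of all genes called lower in WT and 34.0% in ID3-KO. With untreated U2OS WT replicate 1 left out, 3 rose and 21 fell in WT, against 32.5% of all genes called lower. KAT5, the acetyltransferase of a complex that exchanges H2A.Z, fell most, by 1.10 in WT (SE 0.07, adjusted p = 1.33e-05) and by 1.24 in ID3-KO (SE 0.06, adjusted p = 1.54e-14), from 35.0 to 14.8 CPM on average in the knockout. VPS72, an H2A.Z-binding subunit, fell by 0.72 and 0.75, and CHD2, a remodeller linked to H3.3, by 0.67 and 0.96. After recovery 5 rose and 11 fell in AID-DIvA WT and 3 rose and 7 fell in ID3-KO, with medians of -0.02 in each; of all genes, 23.9% were called higher and 23.0% lower in WT, and 20.2% and 19.9% in ID3-KO. ASF1B fell by 0.62 and 0.80, ASF1A, also a chaperone of H3 and H4, by 0.59 and 0.67, and ANP32E, which removes H2A.Z, by 0.49 and 0.67. In untreated cells 6 were higher and 7 lower in the AID-DIvA knockout, where 36.7% of all genes were called in either direction, and 0 and 1 in U2OS, where 15.2% were. The gene called in U2OS was CABIN1, a subunit of the HIRA complex, lower by 0.25 (adjusted p = 0.0446) and by 0.31 in AID-DIvA. Without untreated U2OS WT replicate 1, 10 were higher and 6 lower in the U2OS knockout, where 20.5% of all genes were called higher and 20.6% lower.

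Among 6 other core histone genes, 4 had enough counts to be tested. The list held H2AFX, CENPA, H3F3C and the genes HIST2H2BE, HIST1H2BK and HIST3H2A of the HIST clusters. Before recovery 1 rose and 1 fell in WT and 3 rose and 1 fell in ID3-KO. After recovery all 4 fell in both genotypes. Of all genes, 26.0% were called higher and 22.9% lower in WT before recovery, and 35.8% and 34.0% in ID3-KO. After recovery 23.0% of all genes were called lower in WT and 19.9% in ID3-KO. The WT counts before recovery were 3 and 1 without untreated replicate 1, where 33.9% of all genes were called higher and 32.5% lower. CENPA, the centromeric H3, fell in all 4 comparisons, by 0.73 and 0.53 before recovery in WT and ID3-KO and by 0.96 and 1.12 after it. HIST2H2BE, an H2B gene that also gives polyadenylated transcripts, rose by 0.78 (adjusted p = 0.00018) and 0.88 (adjusted p = 1.12e-12) before recovery and fell by 0.50 after it in WT (adjusted p = 3.45e-05) and by 0.62 in ID3-KO (adjusted p = 0.00224). HIST1H2BK, another H2B gene, fell by 0.20 after recovery in WT (adjusted p = 0.00846) and by 0.95 in ID3-KO (adjusted p = 1.49e-05). This response was called different between the genotypes (interaction -0.74, SE 0.10, adjusted p = 0.00144). H2AFX, the variant phosphorylated at DNA breaks, fell after recovery by 0.52 in WT and 0.68 in ID3-KO.

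Markers of the cell cycle moved with the drug in the same libraries. CDKN1A, whose values are given above, rose in all 4 comparisons. Of the other 6 markers (MKI67, TOP2A, CCNB1, CCNA2, PCNA and MCM2), 4 fell in U2OS WT and 6 in U2OS ID3-KO. Of all genes, 22.9% and 34.0% were called lower there. After recovery 4 fell in each genotype while 2 rose in WT and 1 in ID3-KO. The shares of all genes were 23.9% higher and 23.0% lower in WT, and 20.2% and 19.9% in ID3-KO. All 6 fell in U2OS WT as well once untreated replicate 1 was left out, where 32.5% of all genes were called lower. MKI67 was then at -0.37 in place of -0.08 and TOP2A at -0.27 in place of -0.12. Without the same library, the stage difference in WT was 1.25 for MCM2 and 0.74 for PCNA. It was -0.35 for TOP2A, -0.28 for MKI67 and -0.17 for CCNB1, and CCNA2 was not called (0.11). CCNA2, the cyclin of S phase and G2, fell by 0.82 in both U2OS genotypes before recovery, and its log2 values after recovery, both called, were -0.71 in WT and -1.0037 in ID3-KO. The part of the cell cycle in the changes of the histone variants was not tested.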

How the data were processed

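RNA-seq (stranded total RNA, paired reads of 100 bases) was deposited as 1 table per library of read counts per gene, which the authors made with STAR on hg19/GRCh37 and featureCounts (versions not given in the sources used here). The count regardless of strand was used, and the deposited counts on the reverse strand served as an alternative. Counts were filtered per comparison (filterByExpr), scaled by TMM and tested with edgeR 4.0.16 in R 4.3.3 (robust quasi-likelihood test) across all genes, with Benjamini-Hochberg adjustment; a call is an adjusted p below 0.05. Each treatment or genotype comparison used its own 6 libraries, and interactions and differences between stages used 12. CPM and FPKM were computed from the counts with TMM factors over all 24 libraries. The script was tested on simulated data. The members, the gene lists and the motifs were chosen with earlier results of these data known. All 9 members are named in every comparison and passed the filter in each. Of the related lists only some genes are named, and these are not always the called ones with the largest change. Alternatives were DESeq2 1.42.0, other scalings and filters, joint fits, a replicate block and leaving out each library. The p-values measure the spread between these replicates. Library totals were 37878751 to 76906266 counts.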

Additional observations from a re-analysis of the deposited data

Results flagged for a closer look

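The responses after and before recovery were compared by a contrast within the edgeR fit. Of all genes, 42.2% were called in WT and 52.5% in ID3-KO. Among the members, 13 of these differences passed. In WT they were -0.50 for H1F0, -0.41 for H2AFV, 0.34 for H2AFY and 2.10 for H2AFY2. In ID3-KO they were -0.77 for H1F0, -0.32 for H1FX, -0.22 for H2AFZ, -0.49 for H2AFV, 0.30 for H2AFY, 2.07 for H2AFY2, -0.31 for H2AFJ, 0.25 for H3F3A and -0.44 for H3F3B. In ID3-KO the calls of H1FX, H2AFZ, H2AFJ and H3F3A were lost with all 8 groups in one fit (adjusted p of 0.0531 to 0.187). A value above 0 means that the gene stood higher, relative to untreated cells, in AID-DIvA cells after recovery than in U2OS cells before it. The line and the stage cannot be told apart.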

How the results depend on the processing

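Of the members' values under other settings, 1354 kept direction and side of the threshold, 53 lost a call, 35 gained one and 34 turned sign; every value that turned sign was uncalled in the reported fit, and the cause was not tested. Turned values outside the leave-outs were H1F0 in AID-DIvA WT after recovery (-0.0069 with library totals, -0.0016 without a filter, -0.0009 with 4 groups fitted together), H3F3B in U2OS WT (0.0239, library totals), H2AFV in U2OS ID3-KO (-0.0075 with DESeq2, -0.0128 without a filter, -0.0052 on the reverse strand, -0.0011 with 4 groups), H2AFY2 between untreated U2OS genotypes (0.0029, no filter), and, for the stage difference in WT, H2AFZ (-0.0594) and H3F3A (-0.0586) with library totals and H3F3A (-0.0002) with at least 10 counts in every library. Leaving out 1 library at a time, the values that turned ran, as lowest to highest, for AID-DIvA WT H1F0 from -0.0480 to 0.0554, for U2OS WT H3F3B from -0.15 to 0.0774, for U2OS ID3-KO H2AFV from -0.0442 to 0.0282, for untreated U2OS genotypes H1FX from -0.27 to 0.10 and H2AFZ from -0.0609 to 0.17 and H2AFY2 from -0.0749 to 0.10, for the AID-DIvA interaction H2AFY2 from -0.0003 to 0.18 and H3F3B from -0.0784 to 0.0330, for the U2OS interaction H1FX from -0.12 to 0.24 and H3F3B from -0.0409 to 0.19, and for the stage difference in WT H1FX from -0.28 to 0.0911 and H2AFZ from -0.11 to 0.14 and H2AFJ from -0.42 to 0.0509 and H3F3A from -0.0768 to 0.11. Another setting required a log2 change beyond 1 in addition to the test. By this rule 1 member (H2AFY2) was lower in U2OS WT and in U2OS ID3-KO, and 1 was higher between stages in WT and in ID3-KO. Of all genes, 1103 of 21797 and 1222 of 21176 were lower by it in these U2OS comparisons. Those higher between stages were 1110 of 22238 in WT and 1274 of 21947 in ID3-KO. The other counts of the treatment, genotype and stage comparisons were 0 by this rule. After recovery 986 of 20289 genes were higher and 512 lower by it in AID-DIvA WT, and 997 of 20362 and 521 in ID3-KO. In U2OS 2958 were higher in WT and 3086 in ID3-KO. Between untreated genotypes 465 were higher and 471 lower in AID-DIvA, and 292 and 586 in U2OS. Those lower between stages were 2261 in WT and 2574 in ID3-KO. In U2OS ID3-KO, 3 members rose with library totals, where 8547 of 21176 genes rose. With 4 groups fitted together 3 fell, where 6031 of 22647 genes fell. Between untreated genotypes, 4 members were higher in AID-DIvA without a filter, where 4059 of 38078 genes were. In U2OS 2 were lower with DESeq2 (1905 of 37003 genes) and 3 with 4 groups together (3059 of 22647 genes). Between stages in ID3-KO, 3 were lower with 8 groups together, where 5599 of 23087 genes were. Same-numbered replicates did not deviate together (r of -0.112 to 0.051), so the numbers do not pair the samples. With the replicate block 0 members were higher and 2 lower between untreated U2OS genotypes, against 978 and 1265 of 20621 genes. Other counts of calls moved by less than 1.5 times with the block. Leaving out 1 library gave, as lowest and highest counts, 1 and 2 members higher and 1 and 5 lower in U2OS WT, 1 and 4 higher between AID-DIvA genotypes, 0 and 5 higher and 0 and 3 lower between U2OS genotypes, 0 and 1 lower in the U2OS interaction, and between stages 2 and 5 lower in WT and 3 and 6 lower in ID3-KO. In U2OS WT 1 was lower without any 1 treated replicate, where 3565 to 3615 of all genes were. Between U2OS genotypes 0 were higher and 0 lower without any 1 knockout replicate, where 544 to 548 and 722 to 747 genes were. Between AID-DIvA genotypes 4 were higher without the third knockout replicate, where 4486 of 20957 genes were. Between stages in ID3-KO 3 were lower without the second recovered replicate, where 5568 of 22557 genes were. The highest counts in U2OS WT, between U2OS genotypes, in the U2OS interaction and between stages in WT came without untreated U2OS WT replicate 1. That library stood apart. Without it, 33.9% of all genes were called higher and 32.5% lower in U2OS WT. The shares were 20.5% and 20.6% between U2OS genotypes, 4.46% and 4.56% in the U2OS interaction, and 26.0% and 26.0% between stages in WT.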
